A study of Mus musculus with 6 samples.

Results

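Rgs13, Bcl6, Mef2b, S1pr2, Jchain, Cxcr5, Cxcl13 and Il21 are 8 genes of the germinal-centre reaction, in B cells, in the follicular helper T cells that support them, or in both. They were followed across B cells, CD4 T cells and the other lineages of immune cells sorted from mouse tumours, out of 33696 genes in the count tables. The choice used the data. B cells with Rgs13 and Jchain had been seen mostly in the 2 libraries whose labels carry d18, so the gap between those libraries and the others is given below as a description, and nothing is read from it. All 8 genes matched 1 feature each, and all had counts: 1626 for Rgs13, 14019 for Bcl6, 1953 for Mef2b, 1589 for S1pr2, 15983 for Jchain, 4465 for Cxcr5, 2242 for Cxcl13 and 303 for Il21 over 25653 cells.

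Germinal centres are structures in B-cell follicles where activated B cells divide, mutate their antibody genes and are selected with help from follicular helper CD4 T cells. Bcl6 is the transcriptional repressor that both cell types need, and Mef2b is a transcription factor that drives Bcl6 in germinal-centre B cells. Rgs13 dampens chemokine receptor signalling in these B cells and the S1P receptor S1pr2 holds them in the follicle. Cxcl13 is the follicle chemokine, Cxcr5 is its receptor, and Il21 is the cytokine by which helper T cells act on B cells. Jchain links IgM and IgA into polymers and is made by plasma cells and by some germinal-centre B cells.

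The study sorted live CD45+ cells, the immune cells, of mouse mammary tumours and made 1 library per treatment. The libraries are labelled VC, MRX, CTX and Combined, and, of a second kind, ctxd18t and combod18t. The title names an inhibitor of MERTK and cyclophosphamide, but the labels do not spell out the abbreviations. The protocol describes mice at day 7 that were treated 3 hours before the harvest, and it gives barcode sets of 1 chip for VC, MRX, CTX and Combined and none for the other pair. MRX, CTX and Combined are called the day 7 libraries below, and ctxd18t and combod18t the d18 libraries. Day, chip and any difference in treatment schedule cannot be told apart between them. VC was not used here. Strain, age, tumour model and the number of animals in a library are not given in the sources used here. With 1 library per label, no p-value was computed, and every interval is a 95% interval that covers counting error only. UMIs are molecules counted by their tags, and levels are CPM, UMI counts scaled to a fixed total, from the pooled counts of all cells of a class within 1 library.

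The 5 libraries held from 4085 to 9064 barcodes and from 39820290 to 100733879 UMIs. After filters they held 5171 MRX, 8506 CTX, 4273 Combined, 3845 ctxd18t and 3858 combod18t cells, with median depths from 6239 to 8940 UMIs. CTX and combod18t shared 34 cell barcodes and Combined and ctxd18t shared 21, while the other 8 pairs shared 0. CD4 T-like cells made up 37.1% of combod18t and between 7.12% and 9.80% of each of the other libraries.

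B-lineage cells were found by clustering without the 8 genes. MRX held 301 of them, CTX 552, Combined 631, ctxd18t 774 and combod18t 241. Among them, 15, 19, 10, 259 and 56 cells in the same order were germinal-centre B-like, named from markers such as the transcription factor Mybl1 and the signalling adaptor Gcsam. That was 4.98% (2.82 to 8.09) of B-lineage cells in MRX, 3.44% (2.08 to 5.32) in CTX and 1.58% (0.76 to 2.90) in Combined, and 33.5% (30.1 to 36.9) in ctxd18t and 23.2% (18.1 to 29.1) in combod18t. The higher d18 shares belong to the pattern for which the genes were chosen. The rest were follicular B-like cells, named from markers of resting follicular B cells such as Fcer2a and Ighd: 286, 533, 621, 515 and 185. Not all of their sub-clusters were led by such genes. A sub-cluster of 179 cells was led by Myc, Nr4a3 and Egr3, and another of 170 cells by Ppp1r14b, C1qbp and Hspd1. The B-cell receptor subunit gene Cd79a was seen in 96.9% to 100% of germinal-centre B-like cells of each library, the T-cell gene Cd3e in at most 3.57%, and the plasma-cell gene Sdc1 had 1 count in the whole class. Cd3e was seen in 93.5% to 95.4% of CD4 T-like cells, and Cd79a in at most 3.21%.

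**Figure D1:**
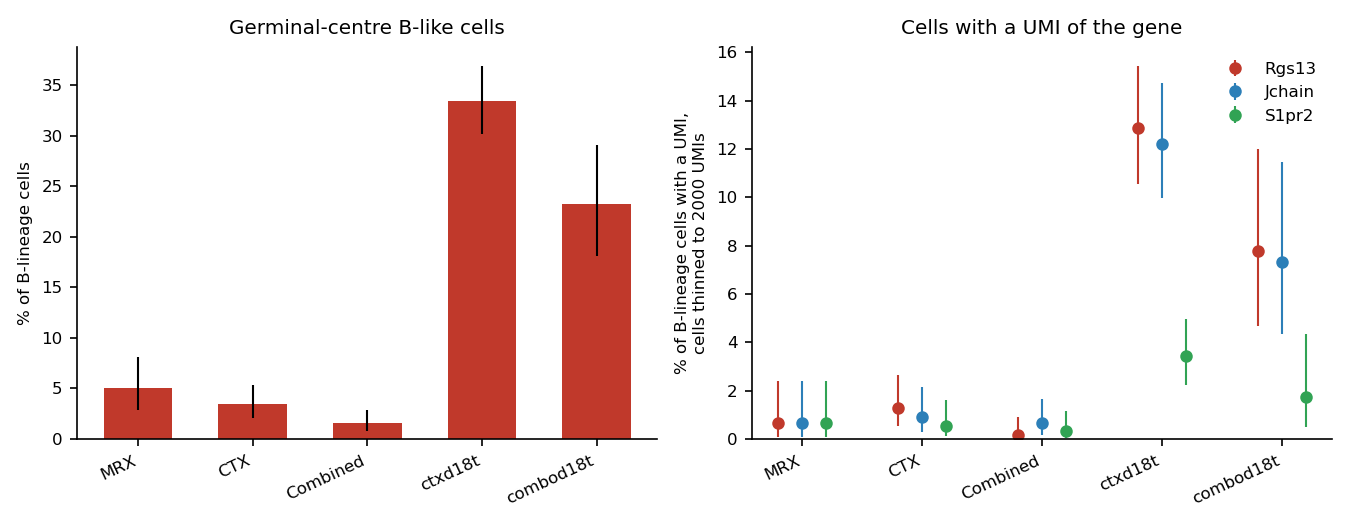
Share of B-lineage cells called germinal-centre B-like in each library, in percent, with exact 95% binomial intervals as error bars and 1 library per point. The day 7 libraries sit between 1.58% and 4.98% and the d18 libraries at 33.5% and 23.2%.

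The germinal-centre B-like class was made of 2 sub-clusters. Sub-cluster 8 was dividing, with the proliferation gene Mki67 in 99.1% to 100% of its cells, while Mki67 was seen in 36.0% of ctxd18t and 29.0% of combod18t cells of sub-cluster 5. The dividing sub-cluster held 66.7% of the germinal-centre B-like cells in MRX, 84.2% in CTX and 90.0% in Combined, and 42.1% in ctxd18t and 44.6% in combod18t. Day 7 and d18 values for the class therefore come mostly from different sub-clusters, and the 10 to 19 cells of each day 7 library give wide intervals. Follicular B-like cells were also split between sub-clusters: the largest number of MRX and Combined cells was in 1, of CTX cells in 2 others, and of d18 cells in another.

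The promoter windows of the B-cell members are printed because these genes were high in the same cells. Each window runs from 250 bases before to 50 after the gene's start, from RefSeq on GRCm38.p6, 5′ to 3′ on the gene's strand. Capitals mark a match to 1 of 4 motifs searched on both strands: the octamer ATGCAAAT, TTCCNNGAA (a core of the kind BCL6 binds), a MEF2 core (CTA and TAG with 4 bases of any kind between them) and a core of the kind bound by PU.1 with IRF factors (GGAA and GAAA with 2 bases of any kind between them). None of the 4 contains another. Rgs13 lies at chr1:144177323-144177622 on the minus strand, Jchain at chr5:88527848-88528147 on the minus strand, Mef2b at chr8:70152511-70152810 on the plus strand, S1pr2 at chr9:20976744-20977043 on the minus strand, and the window of a second Bcl6 start at chr16:23981234-23981533 on the minus strand.
Rgs13: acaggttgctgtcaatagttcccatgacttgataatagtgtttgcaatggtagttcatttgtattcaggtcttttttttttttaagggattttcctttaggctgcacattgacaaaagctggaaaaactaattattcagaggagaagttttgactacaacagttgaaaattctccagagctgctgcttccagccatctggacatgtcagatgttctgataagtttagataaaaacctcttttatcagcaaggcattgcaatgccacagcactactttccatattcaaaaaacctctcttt
Jchain: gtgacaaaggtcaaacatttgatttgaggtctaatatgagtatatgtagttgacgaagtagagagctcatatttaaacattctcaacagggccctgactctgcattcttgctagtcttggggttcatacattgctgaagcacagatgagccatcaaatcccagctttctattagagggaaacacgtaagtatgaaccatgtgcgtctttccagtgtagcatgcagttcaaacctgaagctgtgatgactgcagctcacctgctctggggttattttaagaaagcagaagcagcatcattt
Mef2b: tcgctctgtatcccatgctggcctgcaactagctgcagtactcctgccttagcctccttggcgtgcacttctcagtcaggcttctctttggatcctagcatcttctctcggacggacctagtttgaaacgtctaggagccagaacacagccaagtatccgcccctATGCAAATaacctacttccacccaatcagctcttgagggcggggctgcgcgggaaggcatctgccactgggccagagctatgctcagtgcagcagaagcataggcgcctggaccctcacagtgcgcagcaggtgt
S1pr2: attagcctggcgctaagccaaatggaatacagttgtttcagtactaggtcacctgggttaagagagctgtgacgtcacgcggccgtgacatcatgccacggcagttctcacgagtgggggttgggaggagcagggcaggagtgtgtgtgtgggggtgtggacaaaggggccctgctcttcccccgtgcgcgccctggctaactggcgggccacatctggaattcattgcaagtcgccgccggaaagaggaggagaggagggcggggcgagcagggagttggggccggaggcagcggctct
Bcl6: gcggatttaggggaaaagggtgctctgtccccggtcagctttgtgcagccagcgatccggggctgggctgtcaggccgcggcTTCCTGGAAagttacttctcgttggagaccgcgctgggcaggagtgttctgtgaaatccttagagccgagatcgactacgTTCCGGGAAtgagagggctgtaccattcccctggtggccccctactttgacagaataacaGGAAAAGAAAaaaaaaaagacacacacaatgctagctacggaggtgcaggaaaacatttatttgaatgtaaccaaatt
The Mef2b window holds the octamer 85 bases before the start, a motif found in 1.74% of the 32851 windows in the table. The Bcl6 window holds TTCCNNGAA 168 and 88 bases before the start, each readable on both strands, and the PU.1-IRF core 28 bases before it. These motifs are in 4.81% and 2.72% of all windows, and the MEF2 core is in 3.69%. None of the 4 is in the windows of Rgs13, Jchain, S1pr2 or Cxcl13 or in that of the other Bcl6 start, and Il21 holds the PU.1-IRF core 118 bases before its start. Cxcr5 had no entry in the table.

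Rgs13, the regulator of chemokine receptor signalling, was at 113 (64.5 to 183) CPM in germinal-centre B-like cells of MRX, 108 (64.8 to 168) in CTX and 64.9 (28.0 to 128) in Combined, and 348 (328 to 369) in ctxd18t and 259 (227 to 295) in combod18t. The higher d18 values are the pattern for which the gene was chosen. In follicular B-like cells it was at 0 CPM in MRX, 2.49 in CTX and 1.89 in Combined, and 4.72 in ctxd18t and 0.67 in combod18t. Within each library Rgs13 was thus higher in germinal-centre B-like than in follicular B-like cells. This too is a description, since the genes were chosen after B cells with Rgs13 and Jchain had been seen. In MRX, with 16 counts against 0, the difference was at least 59.8-fold against a floor of 3 counts, and the counting interval begins at 5.44 on the log2 scale. In Combined it was 4.51 (3.39 to 6.91), the smallest of the 5, from 8 and 6 counts. The MRX and Combined counts are under the 20 needed for a gene to be assessed. The difference was 4.96 (4.06 to 7.05) in CTX and 5.93 (5.55 to 6.94) in ctxd18t. In combod18t the difference was 7.28 (6.10 to 13.91), with 1 follicular count. Log2 ratios here are of CPM + 1, and their intervals are of the ratio without the added 1, so they can sit unevenly around the value. Many genes differed between these classes: at least 2-fold differences in either direction were found in 26.8% of genes assessed in MRX, 29.6% in CTX and 33.4% in Combined, and 20.5% in ctxd18t and 21.8% in combod18t.

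With each cell thinned to 2000 UMIs, Rgs13 was seen in 2 of 14 germinal-centre B-like cells of MRX (1.78 to 42.8%), 4 of 19 of CTX (6.05 to 45.6%) and 1 of 10 of Combined (0.253 to 44.5%), and in 95 of 253 of ctxd18t (37.5%, 31.6 to 43.8) and 17 of 55 of combod18t (30.9%, 19.1 to 44.8). These intervals overlap. Before thinning the d18 shares were 62.5% and 53.6%, at median depths of 10007 and 13499 UMIs. CD8 T-like cells, which should lack the gene, had a Rgs13 UMI in at most 0.14% of thinned cells, and in none of 1114 MRX cells before thinning, for which the floor of 3 counts gives a limit of 0.269%, at median depths from 4736 to 8500 UMIs. In ctxd18t the 2 sub-clusters had like Rgs13 levels: the dividing one differed by 0.04 on the log2 scale.

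Mef2b, the driver of Bcl6, was at 56.4 (24.4 to 111) CPM in germinal-centre B-like cells of MRX, 56.7 (27.2 to 104) in CTX and 114 (62.1 to 191) in Combined, and 113 (102 to 126) in ctxd18t and 66.8 (51.0 to 86.0) in combod18t. Of these only the ctxd18t and combod18t intervals are narrow, and they do not overlap. Follicular B-like cells held 11.3, 8.28, 9.13, 8.45 and 7.38 CPM in the same library order. Germinal-centre B-like cells were above them by 2.22 to 3.60 on the log2 scale, in all 5 libraries. Of the 1953 Mef2b counts over all cells, germinal-centre B-like cells held 363 in ctxd18t and 60 in combod18t. Most Mef2b counts lay outside both B-cell classes. Mef2b overlaps Borcs8, a lysosome-positioning gene, on the same strand, so the authors' counting may have split or dropped reads between them. Borcs8 differed by between -1.32 and 1.27 in the same contrast. Like Mef2b it was higher in germinal-centre B-like cells of ctxd18t, by 0.81 (0.53 to 1.12), and of combod18t, by 1.27 (0.66 to 1.96). In Combined it was at -1.32 (-4.43 to 0.51), from 2 germinal-centre B-like counts. In MRX and CTX it was at 0.20 and -0.21, with intervals that include no difference.

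S1pr2, which keeps germinal-centre B cells in the follicle, was at 42.3 (15.5 to 92.1) CPM in MRX, 39.7 (15.9 to 81.7) in CTX and 64.9 (28.0 to 128) in Combined, and 58.4 (50.3 to 67.4) in ctxd18t and 35.6 (24.4 to 50.3) in combod18t germinal-centre B-like cells. The day 7 values rest on 6, 7 and 8 counts, and none of their intervals separates them from the d18 values. In follicular B-like cells S1pr2 had at most 2 counts in a library. The difference was 5.31 (5.002 to 9.93) in ctxd18t, from 2 follicular counts, and at least 17.7-fold against a floor of 3 counts in combod18t, where there were none and the counting interval begins at 3.76 on the log2 scale. A low level was also seen in monocyte-macrophage-like cells, at 3.90 to 8.90 CPM. Of the 1589 S1pr2 counts over all cells, germinal-centre B-like cells held 187 in ctxd18t and 32 in combod18t. Most S1pr2 counts lay outside both B-cell classes.

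Bcl6 differed less between the 2 B-cell classes than Rgs13, Mef2b and S1pr2 did. Germinal-centre B-like cells held 84.6, 108, 114, 173 and 96.9 CPM in MRX, CTX, Combined, ctxd18t and combod18t, and follicular B-like cells 42.7, 57.6, 57.3, 71.8 and 38.2. The log2 differences between these 2 classes were 0.97, 0.89, 0.97, 1.26 and 1.32, close to 2-fold on either side in all 5 libraries. Bcl6 also reached 76.0 to 132 CPM in neutrophil-like cells, 34.4 to 71.7 in monocyte-macrophage-like cells, 36.0 to 47.2 in CD8 T-like cells and 38.9 to 86.1 in CD4 T-like cells. Its counts were thus spread over all the lineages described, and in ctxd18t and combod18t neutrophil-like cells held 125 and 132 CPM.

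**Figure D2:**
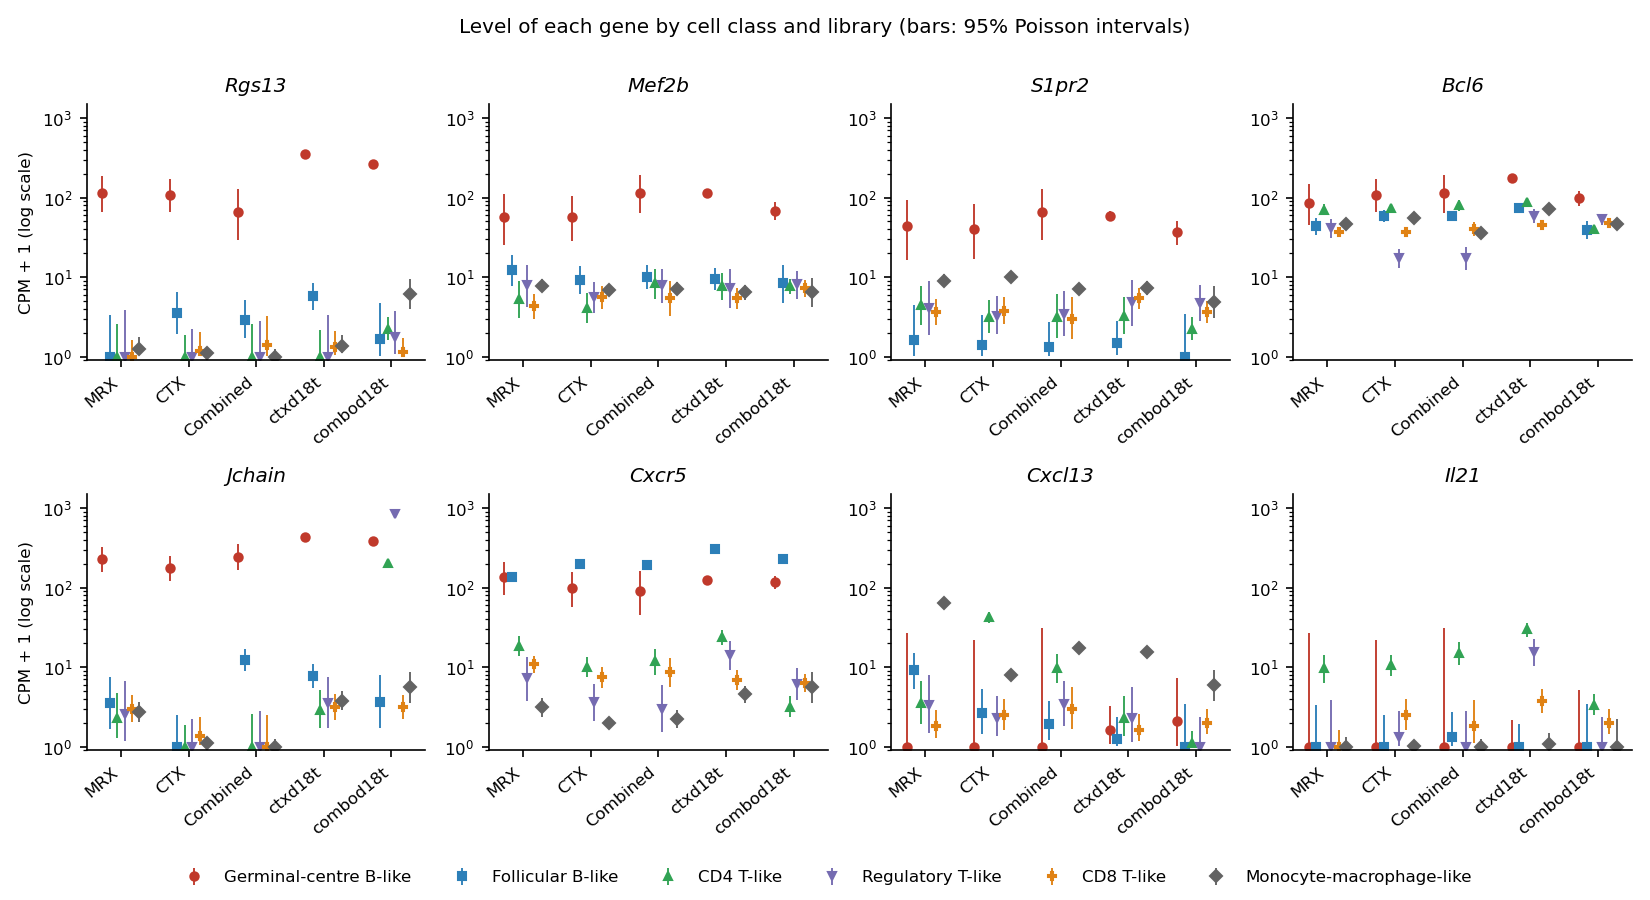
Level of each of the 8 genes as CPM + 1 (log axis) in 6 cell classes of each library, with exact 95% Poisson intervals as bars. Rgs13, Mef2b and S1pr2 are highest in germinal-centre B-like cells, as is Jchain except in combod18t, where regulatory T-like cells reach 829 CPM; Cxcr5 is highest in the B-cell classes, Il21 in CD4 T-like cells, and Bcl6 is spread over all 6.

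Jchain, like Rgs13, was higher in germinal-centre B-like than in follicular B-like cells, again a description given how the genes were chosen. Jchain also stood out in a few other barcodes. In germinal-centre B-like cells it was at 226 CPM in MRX, 176 in CTX and 243 in Combined, and 436 in ctxd18t and 388 in combod18t. Without the barcode with the highest count these levels were 134, 96.3, 138, 358 and 268, still in the same order between day 7 and d18. Cells with a Jchain UMI had a median of 5 counts in ctxd18t (148 cells) and 4 in combod18t (31 cells), and medians of 3 to 6.5 in the 4 to 8 such cells of each day 7 library. Follicular B-like cells held 2.51, 0, 11.3, 6.71 and 2.68 CPM, and 34 of the 36 Combined counts lay in 1 barcode.

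A separate set of barcodes carried most of the Jchain molecules. In combod18t, 13 barcodes with at least 100 counts, from 107 to 1941, held 96.4% of all 10954 Jchain counts, and in ctxd18t 3 such barcodes held 66.4% of 4459. No kept day 7 cell reached 100 counts, although 1 MRX barcode with 454 and 1 Combined barcode with 116 had been removed as likely doublets, as was 1 in each d18 library. All 13 combod18t barcodes had UMIs of Cd79a, of Xbp1, the plasma-cell transcription factor, and of the plasma-cell gene Mzb1. Prdm1, the plasma-cell regulator, was seen in 9 and Sdc1, the plasma-cell surface protein, in 8. Rgs13 was seen in 1 of the 13. The T-cell gene Cd3e was seen in 5 of them and Cd3e or Trbc2 in 8, and their median depth was 3.83 times that of their library. Their leading heavy chain was Ighg2c in 7, Ighm in 4, and Ighg1 and Ighg2b in 1 each. Clustering put 7 of them into an unnamed B sub-cluster with T-cell genes that is left out of the B-lineage values, 3 with regulatory T-like cells, and 1 each with CD4 T-like, germinal-centre B-like and mixed cells. The part of doublets or free RNA in these T-cell signals was not tested.

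**Figure D3:**
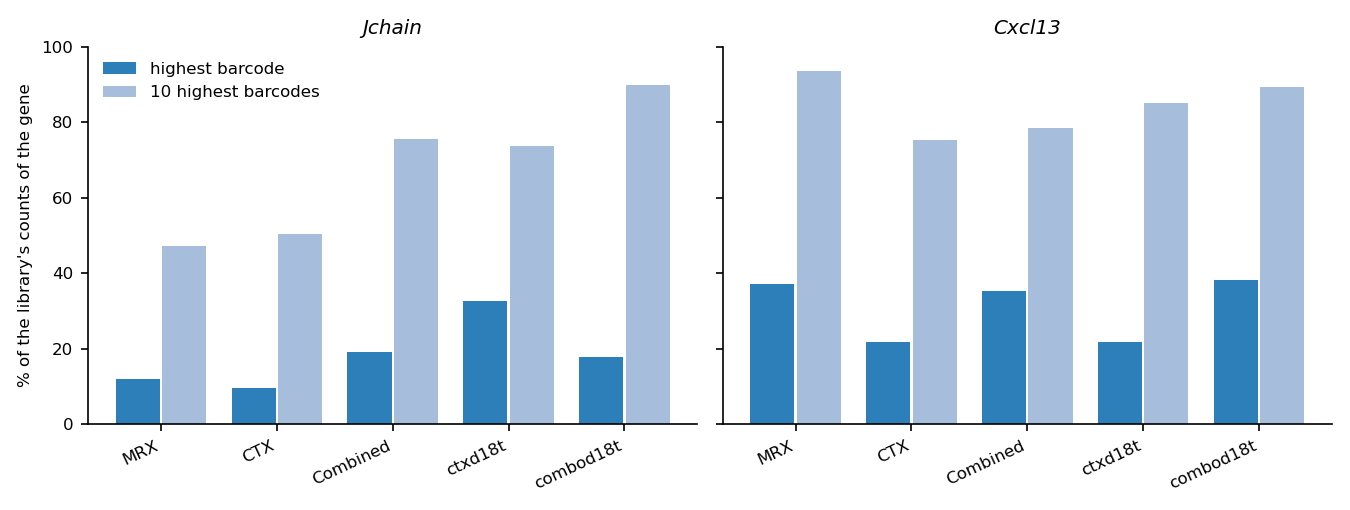
Share of the Jchain and of the Cxcl13 counts of each library, in percent, that lies in the highest barcode (dark bars) and in the 10 highest barcodes (light bars). The 10 highest hold 90.0% of Jchain in combod18t and 47.3% in MRX, and from 75.3% to 93.6% of Cxcl13.

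The genes were chosen because B cells with both Rgs13 and Jchain had been seen, so how often the pair was seen together is a description. In ctxd18t, 74.7% (67.3 to 81.2) of the 162 cells with a Rgs13 UMI also had a Jchain UMI, against 27.8% (19.2 to 37.9) of the 97 without. After thinning to 2000 UMIs the shares were 50.5% (40.1 to 60.9) and 24.7% (18.2 to 32.2). In combod18t the thinned shares were 64.7% (38.3 to 85.8) of 17 cells and 15.8% (6.02 to 31.3) of 38. Mybl1, a transcription factor of germinal-centre B cells, was seen in 54.7% of the thinned ctxd18t cells with Rgs13 and 34.8% of those without, with intervals that do not overlap, but in combod18t in 17.6% and 18.4%. Bcl6, at 27.4% against 20.9%, Mef2b, at 20.0% against 14.6%, and S1pr2, at 11.6% against 9.49%, had overlapping intervals once thinned. Cxcr5 was seen in 18.9% of cells with Rgs13 and 26.6% of cells without.

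Cxcr5, the receptor for Cxcl13, was, unlike the other B-cell members, not higher in germinal-centre B-like than in follicular B-like cells. They held 134, 96.3, 89.2, 124 and 115 CPM in MRX, CTX, Combined, ctxd18t and combod18t, and follicular B-like cells 134, 196, 192, 306 and 226. The log2 difference was 0.00 in MRX and -1.01, -1.10, -1.29 and -0.97 in the other libraries. Dividing cells differed from the rest of the germinal-centre B-like class by -0.89 in each d18 library. Outside B cells Cxcr5 was at 15.05 to 27.2 CPM in neutrophil-like cells, 5.38 to 9.84 in CD8 T-like cells and 1.95 to 13.3 in regulatory T-like cells. Cxcr5 overlaps Bcl9l on the opposite strand.

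Within ctxd18t germinal-centre B-like cells, 16.6% of genes differed 2-fold between the dividing and the other sub-cluster, and none of the 6 members assessed did: Bcl6 by 0.01, S1pr2 by 0.27, Jchain by -0.44 and Mef2b by 0.56. In combod18t 23.0% of genes did, and of the members S1pr2 was at 1.61 (0.28 to 3.41), from 27 and 5 counts, Jchain at 1.18 and Rgs13 at 0.58. Of the 276 Jchain counts in the dividing cells of combod18t 107 lay in 1 barcode, as did 250 of the 677 in the other sub-cluster of ctxd18t, so no difference in Jchain is read from these values.

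Comparisons between libraries used all B-lineage cells, so they move with the share of germinal-centre cells as well as with the level in each cell, and these cannot be told apart from the sums alone. A gene was assessed with at least 20 counts over both libraries and counted as apart where its log2 ratio was 1 or more in either direction. B-lineage levels in MRX, CTX, Combined, ctxd18t and combod18t were 9.23, 9.65, 4.24, 157 and 97.9 CPM for Rgs13. They were 15.004, 11.6, 13.0, 54.9 and 29.7 for Mef2b, and 4.04, 3.09, 2.73, 26.2 and 13.4 for S1pr2. For all 3 genes the d18 libraries were above every day 7 library, and ctxd18t was highest. Jchain was at 20.8, 12.0, 20.0, 197 and 147 CPM, Bcl6 at 46.2, 61.0, 59.4, 117 and 60.3, and Cxcr5 at 134, 189, 188, 225 and 184.

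Combined was compared with CTX first, among the day 7 libraries. The pair had 1 of 5 assessed members apart, against 1.76% of all 9781 genes. This was Rgs13, lower in Combined with a log2 ratio of -1.02 (-2.24 to -0.19), with 14 and 25 counts; after thinning all cells to 2000 UMIs none of the members was 2-fold apart. Jchain was at 0.70 (0.11 to 1.41), but 34 of its 66 Combined counts and 14 of its 31 CTX counts lay in 1 barcode each. Without both barcodes the value was 0.50, from 32 and 17 counts. Bcl6, Mef2b and Cxcr5 were within -0.04 to 0.16. The same pair differed in the share of germinal-centre B-like cells, 1.58% against 3.44%, with overlapping intervals. Combined against MRX had none of 5 apart, beside 3.45% of genes, with Rgs13 at -0.96, and CTX against MRX had none of 5, beside 2.35%, with Jchain at -0.75. Comparisons of one library with several others share its cells and are not independent.

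Between the d18 libraries all assessed members had lower values in combod18t. None of 6 was 2-fold apart from ctxd18t, beside 2.80% of 10823 genes. Rgs13 differed by -0.68 (-0.89 to -0.48), Bcl6 by -0.94, Mef2b by -0.86, S1pr2 by -0.92, Jchain by -0.42 (-0.59 to -0.25) and Cxcr5 by -0.29, while the median of all genes was 0.02. Some of these values lie near 2-fold, and 5 of 6 passed it when each cell's CPM was averaged in place of the pooled counts. Within germinal-centre B-like cells alone the members were nearer: Rgs13 -0.42, Bcl6 -0.83, Mef2b -0.75, S1pr2 -0.70, Jchain -0.17 and Cxcr5 -0.11, none of 6 apart beside 5.20% of genes.

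The d18 libraries against the day 7 libraries are the contrast behind the choice of genes. In ctxd18t against CTX, 4 of 6 assessed members were higher, beside 7.52% of all genes: Rgs13 by 3.89 (3.46 to 4.66), Jchain by 3.93 (3.53 to 4.60), S1pr2 by 2.73 (2.07 to 4.32) and Mef2b by 2.15 (1.71 to 2.83). Bcl6 was at 0.93 and Cxcr5 at 0.26. In combod18t against Combined the same 4 were higher, beside 5.84% of all genes: Rgs13 by 4.24 (3.75 to 5.42), Jchain by 2.82, S1pr2 by 1.95 and Mef2b by 1.13. Bcl6, at 0.02, and Cxcr5, at -0.03, differed little there.

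**Figure D4:**
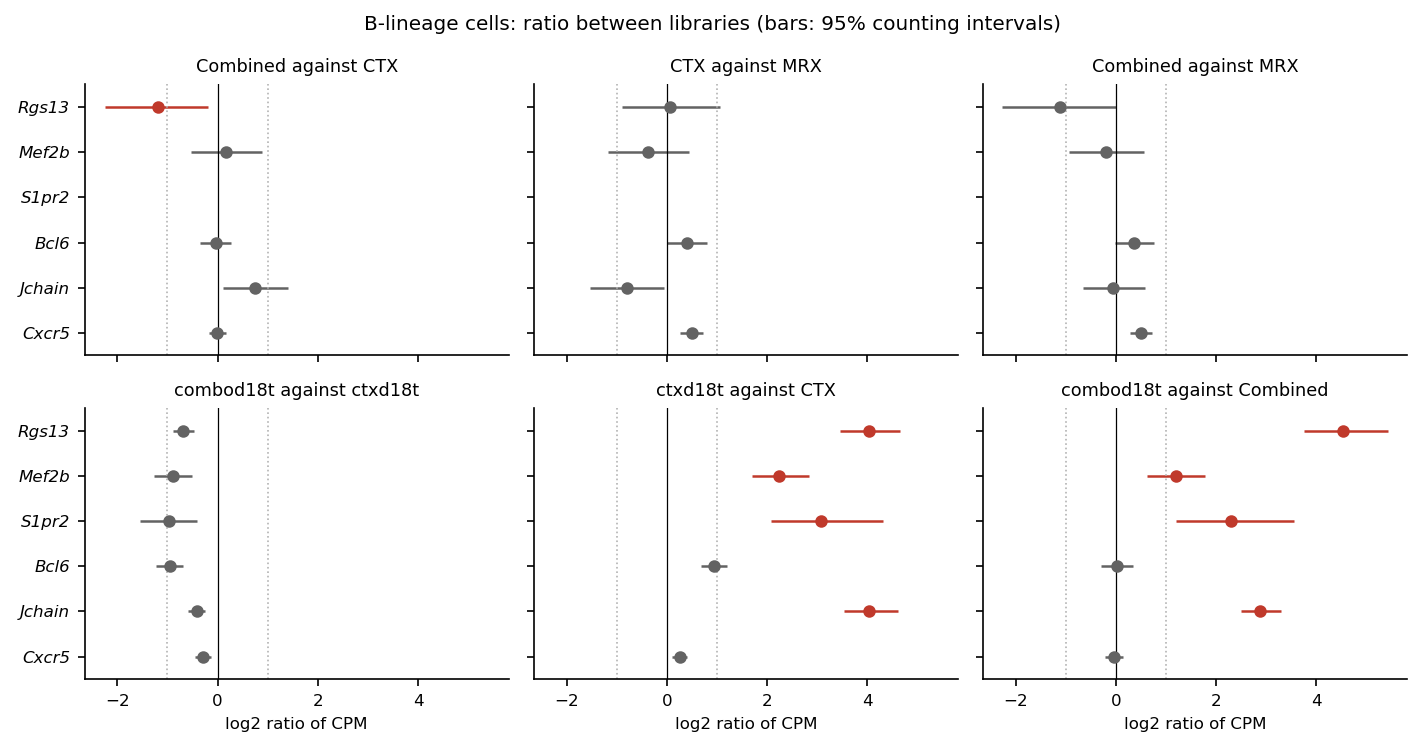
Log2 ratio of CPM for each assessed member in B-lineage cells in 6 pairs of libraries, with exact 95% intervals of the ratio; dotted lines mark 2-fold and red marks members 2-fold apart on CPM + 1. The 4 red points on the right of each d18 against day 7 pair are Rgs13, Jchain, S1pr2 and Mef2b, and Rgs13 is the only red point in the day 7 pairs.

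Other genes of the germinal centre gave the setting. Of 15 germinal-centre B genes, of which 8 had named the class, 13 were higher in B-lineage cells of ctxd18t than of CTX and 0 lower. Beside this, 7.52% of all genes were higher. The list median was 1.98 against 0.20 for all genes. Gcsam, a signalling adaptor, was higher by 3.29 and Mybl1 by 3.24, while Cxcr4, the receptor that places cells in the dark zone, was at 0.04 and the mitotic kinase Aurka at 0.91. In combod18t against Combined 12 were higher and 0 lower, beside 5.84% of all genes higher, with a median of 2.08 against 0.13. Gcsam was higher by 4.19 (3.62 to 7.53) from 3 Combined counts, and Nuggc by 4.96 (4.45 to 9.40) from 2. In combod18t against ctxd18t 2 were lower and 0 higher of 15, beside 2.80% of all genes apart in either direction. The list median was -0.28 against 0.02. The 2 were Fas, the death receptor, lower by -1.53, and Mybl1, by -1.13. In Combined against CTX 5 of 14 were lower and 0 higher, beside 1.76% of all genes apart in either direction. The list median was -0.47 against 0.09, and germinal-centre B-like cells numbered only 10 and 19 there. Nuggc was lower by -2.38 (-6.74 to -1.55), from 2 and 19 counts.

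Of 9 genes of the light zone, where B cells meet helper T cells, none was 2-fold apart in B-lineage cells in any of the 6 pairs, where 1.76% to 3.45% of all genes were apart in the pairs within day 7 or within d18 and 7.52% and 5.84% were higher in the d18 against day 7 pairs. So few genes cannot be set apart from that background. Among 10 follicular and resting B genes Gpr183, the receptor that guides B cells to the follicle edge, was lower in combod18t than in Combined by -2.22 and than in ctxd18t by -1.47, and 0 of the 10 were apart in ctxd18t against CTX. Of 9 plasma-cell genes, 7 were assessed in ctxd18t against CTX: Prdm1 was higher by 1.93 (1.15 to 3.81), from 84 and 6 counts, and Irf4 was lower by -1.11. Derl3, a factor of protein quality control, was at 1.06 (-0.03 to 3.44), from 31 and 4 counts, an interval that includes no difference. Of 21 partners of the members, Rgs1, a relative of Rgs13, was higher by 1.47 and Bcor, a co-repressor that works with Bcl6, by 1.30 in the same pair, and Pigr, the receptor that carries Jchain-linked antibody across epithelia, was lower by -1.08, of 18 assessed.

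Il21 was the rarest member, with from 20 to 157 counts per library, and most of it lay in CD4 T-like cells. It was at 8.59 CPM in MRX, 9.55 in CTX and 13.9 in Combined, and 28.7 in ctxd18t and 2.35 in combod18t, from 20, 40, 32, 90 and 23 counts. The ctxd18t library was highest and combod18t lowest. Cxcr5 in the same cells was at 17.6, 9.07, 10.8, 22.6 and 2.14 CPM, with ctxd18t highest and combod18t lowest again. Bcl6 was at 69.6, 72.1, 78.5, 86.1 and 38.9. B cells gave 0 Il21 counts in the germinal-centre B-like class, where 3 counts would give 0.936 CPM in ctxd18t, and 1 in the follicular B-like class over all libraries. Il21 overlaps the antisense gene Gm12534.

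Most Il21 counts lay in CD4 sub-cluster 4 in 4 of the libraries: all 20 in MRX, 21 of 32 in Combined, 86 of 90 in ctxd18t and all 23 in combod18t, but 16 of 40 in CTX. Of Bcl6 it held 93 of 162 counts in MRX and 86 of 381 in combod18t. Sub-cluster 4, of 622 cells, held 166 Il21 counts. Among the CD4 T-like and regulatory T-like sub-clusters it was highest in 8 of 18 follicular helper genes. These included Sh2d1a, the adaptor needed for helper contact with B cells, Tox2, Ascl2 and Btla. The others were highest elsewhere: Pdcd1, Cd200 and Batf in sub-cluster 9, Icos in 12, and Cd40lg, Tcf7 and Il6ra in 16. Lef1 was highest in sub-cluster 0, and Maf and Il6st in regulatory T-like sub-clusters. Within it Il21 was at 23.3 (14.2 to 36.0) CPM in MRX, 27.3 (15.6 to 44.3) in CTX and 32.5 (20.1 to 49.7) in Combined, and 106 (84.6 to 131) in ctxd18t and 23.3 (14.8 to 35.0) in combod18t. Cxcr5 in it was at 32.6 (21.7 to 47.2), 27.3 (15.6 to 44.3), 23.2 (13.0 to 38.3), 72.6 (55.3 to 93.7) and 9.12 (4.17 to 17.3) CPM. For both genes ctxd18t lay above every other library with no overlap, and for Cxcr5 combod18t lay below MRX and ctxd18t with none. The sub-cluster was 39.6% of CD4 T-like cells in MRX, 17.7% in CTX and 32.2% in Combined, and 27.9% in ctxd18t and 8.39% in combod18t.

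In combod18t 83.3% of CD4 T-like cells were in sub-cluster 0, led by St8sia6, Satb1, Bach2 and Lef1, of which Bach2 and Lef1 are transcription factors of resting T cells. That sub-cluster held 0 Il21 counts in 1324 cells over all libraries, where 3 counts would give 0.425 CPM, and 9 counts of Cxcr5. Its share was 21.2% in ctxd18t and between 2.48% and 5.62% in the day 7 libraries. Sub-cluster 5 has St8sia6, Satb1, Lef1 and Sh3bp5 in common with it among their 10 leading genes, at a median depth of 0.47 times that of the cells' libraries against 0.85. It held 34.8% of CD4 T-like cells in MRX, 45.9% in CTX and 26.3% in Combined, and 6.37% in ctxd18t and 4.05% in combod18t. So cells led by these genes were present in all 5 libraries, and how far the split between both sub-clusters follows depth was not tested.

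**Figure D5:**
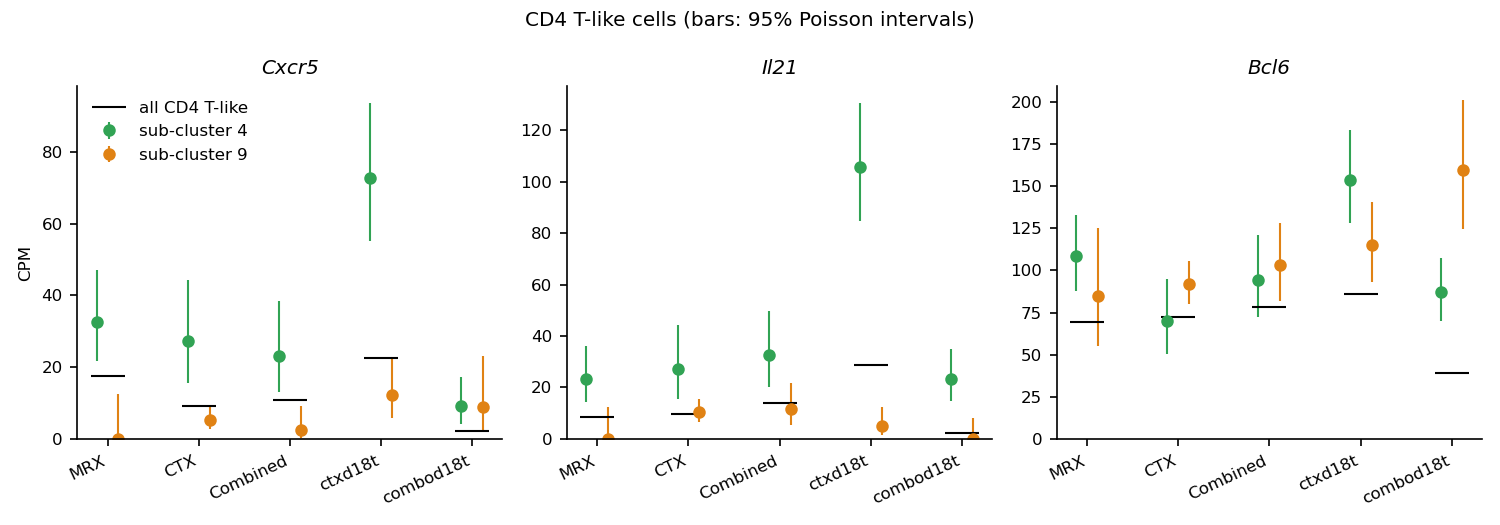
Level of Cxcr5, Il21 and Bcl6 in CPM by library in all CD4 T-like cells (black lines) and in their sub-clusters 4 and 9 (points, with exact 95% Poisson intervals). In sub-cluster 4 Il21 reaches 106 CPM in ctxd18t and 23.3 to 32.5 in the other libraries.

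The genes seen in the same CD4 T-like cells were counted over all 5 libraries, which differ in level and in cell number, with 1431 of the cells from combod18t, so shares within single libraries are given beside the pooled ones. Of the 76 CD4 T-like cells with an Il21 UMI, 19.7% also had Cxcr5, against 3.7% of 3133 without. In single libraries that was 4 of 10 cells in MRX, 1 of 16 in CTX and 2 of 17 in Combined, and 7 of 21 in ctxd18t and 1 of 12 in combod18t, against 5.15%, 5.25%, 4.67%, 8.43% and 1.13% of cells without Il21. In CTX the shares were thus close, at 6.25% and 5.25%. Bcl6 was seen in 42.1% against 20.8%, and in 16.7% against 8.9% after thinning. In single libraries, before thinning, 5 of 10 cells with Il21 had Bcl6 in MRX, 6 of 16 in CTX and 6 of 17 in Combined, and 10 of 21 in ctxd18t and 5 of 12 in combod18t, against 19.7%, 24.7%, 27.7%, 28.1% and 16.1% of the rest, with overlapping intervals in each library. Tox2 was seen in 44.7% against 5.3%, and in 23.8% against 2.5% after thinning. In single libraries that was 5 of 10 cells, 2 of 16, 8 of 17, 15 of 21 and 4 of 12 in the same order, against 6.26%, 6.61%, 12.1%, 10.4% and 1.69%, and the intervals overlap in CTX but not in the other libraries. Pdcd1, the checkpoint receptor PD-1, was seen in 52.6% against 17.4%, but in MRX in 20.0% against 20.6%. Of the 130 cells with a Cxcr5 UMI, 54.6% had Bcl6 against 19.9%, and 32.7% against 8.6% after thinning. Before thinning the share with Bcl6 was higher in cells with Cxcr5 in each library, from 46.9% against 23.9% in CTX to 25 of 37 cells against 85 of 340 in ctxd18t.

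Comparisons between libraries in CD4 T-like cells also move with the shares of the sub-clusters as well as with the level in each cell. Sub-cluster 4 was 32.2% of these cells in Combined, 27.9% in ctxd18t and 8.39% in combod18t. Share and level cannot be told apart from the sums alone. In CD4 T-like cells Cxcl13 was apart in each day 7 pair, on few barcodes: 126 of its 172 CTX, 12 of its 20 Combined and 4 of its 6 MRX counts lay in 1 barcode each. Combined against CTX had 2 of 5 apart, beside 2.77% of all genes: Mef2b higher by 1.03 and Cxcl13 lower by -2.12. CTX against MRX had 1 of 5, Cxcl13 higher by 3.56, beside 7.10%, and Combined against MRX had 1 of 5, Cxcl13 higher by 1.44, beside 5.27%. Without these barcodes the 3 Cxcl13 values were -1.42, 2.69 and 1.27, the last from 8 and 2 counts and so not assessed. In combod18t against ctxd18t 4 of 5 were apart, beside 12.3% of all genes. Il21 was lower by -3.15 (-4.34 to -2.94), Cxcr5 by -2.91 (-4.18 to -2.68) and Bcl6 by -1.13, and Jchain was higher by 6.12, with 1941 of its 1971 combod18t counts in 1 barcode.

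The pairs of a d18 with a day 7 library in CD4 T-like cells had Cxcr5 and Il21 in opposite directions and Cxcl13 lower in both. In ctxd18t against CTX 3 of 5 were apart, beside 10.2% of all genes: Cxcr5 was higher by 1.23 (0.73 to 1.93), Il21 higher by 1.49 (1.04 to 2.16) and Cxcl13 lower by -4.21, or by -2.87 without the highest barcode of each library. In combod18t against Combined 4 of 6 were apart, beside 27.1% of all genes: Cxcr5 was lower by -1.91 and Il21 by -2.15, Cxcl13 was lower too, and Jchain was at least 155-fold higher against a floor of 3 counts, with an interval that begins at 6.97 on the log2 scale, from the same barcode.

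Some follicular helper genes other than the members were also apart in these pairs. Of 17 assessed, 7 were higher and 0 lower in ctxd18t against CTX, beside 10.2% of all genes apart in either direction, with a median of 0.94 against 0.17 for all genes. Il6st, a subunit of the IL-6 receptor, was higher by 2.07 and Pou2af1 by 1.99, while the cytokine Il4 was at -0.66 and Cd200 at -0.29. In combod18t against ctxd18t 0 were higher and 11 lower, beside 12.3% of all genes, with a median of -1.27 against -0.05. Tox2 was lower by -2.61 and Pdcd1 by -2.45, while Lef1, a transcription factor of resting and early helper T cells, was at 1.00. In combod18t against Combined 4 were higher and 8 lower, beside 27.1% of all genes, with a median of -0.80 against -0.01: Lef1 by 2.05 and Pou2af1 by 1.46, and Pdcd1 by -2.39 and Il4 by -2.32. Of 9 genes that are low in follicular helper cells, Il7r, the IL-7 receptor of resting T cells, was higher by 1.58 in that pair, and Il2ra was lower by -2.37.

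Cxcl13, the ligand of Cxcr5, did not follow the germinal-centre B-like cells. Monocyte-macrophage-like cells held 62.2 CPM in MRX, 6.89 in CTX and 16.5 in Combined, and 14.5 in ctxd18t and 4.88 in combod18t. Of 780 MRX counts in all classes, 3 barcodes held 82.1%, all of them monocyte-macrophage-like. CD4 T-like cells held 2.58, 41.1, 8.67, 1.28 and 0.10 CPM, and 126 of the 172 CTX counts were in 1 barcode. Of the CTX counts 166 lay in sub-cluster 9, led by Ccl1, Penk and Xcl1, and 5 in sub-cluster 4. Of CD4 T-like cells with an Il21 UMI, 1.3% also had Cxcl13. So the order of the libraries rests on a few cells in each class.

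Among the remaining classes, plasmacytoid dendritic-like cells, which make Jchain, held 10.9, 70.0, 74.2, 24.8 and 14.8 CPM of it in MRX, CTX, Combined, ctxd18t and combod18t. The highest Jchain barcode of CTX, with 18 counts, and that of Combined, with 52, was such a cell. Regulatory T-like cells of combod18t held 829 CPM of Jchain and included 3 of the 13 barcodes described above. These cells held 23 Il21 counts in ctxd18t, 20 of them in 1 barcode, and Il21 was at most 2.73 CPM in CD8 T-like cells. Rgs13 over all cells of a library was at 0.53 CPM in MRX, 0.37 in CTX and 0.48 in Combined, and 27.9 in ctxd18t and 7.23 in combod18t.

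Over 52 sums of at least 50 cells in 12 classes, the genes most like each member in log2(CPM + 1) among 14630 genes were named by Pearson's correlation. The sums share libraries and depths. Germinal-centre B-like cells enter from ctxd18t and combod18t only, with 259 and 56 cells, the libraries behind the choice of genes. Nuggc, named next, is also a marker that named that class. Among the nearest to Rgs13 were Nuggc (0.93) and Gm2447 (0.92), and the nearest to Cxcr5 were the B-cell genes Fcrl1 (0.92) and Bank1 (0.83), with Gm11342 (0.84). Il21 was nearest to Susd2 (0.87), Hs6st3 (0.85) and Gm14718 (0.82), and Jchain to the antibody light chain genes Igkc (0.68), Iglc1 (0.68) and Iglv1 (0.65). The nearest genes of S1pr2 were Dstn (0.75), Fer (0.73) and Dram1 (0.69), of Mef2b Manea (0.74), Gm2447 (0.71) and Erp44 (0.71). For Bcl6 they were 9930022D16Rik (0.71), Rbks (0.70) and Gm16091 (0.68), and for Cxcl13 Slc13a3 (0.69), Scamp5 (0.67) and Plxna4os1 (0.67).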

How the data were processed

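CD45+ cells of mouse tumours were captured with the 10x 3' v4 on-chip multiplexing kit, per the labels' protocols. The deposited files hold UMI counts per gene and barcode, not normalised, and Cell Ranger 9.0.1, run by the authors, made them. The submitters' processing notes also name Seurat 5.2.0 and GRCm39.

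Here, barcodes with at least 200 genes and at most 15% mitochondrial counts were kept. Scrublet (scanpy 1.11.5, expected rate 0.06) marked under 0.5% of cells. Cells scoring above the cut for the top 5% of each library were therefore removed. These were from 160 cells in combod18t to 392 in CTX, under 5% of each library. Counts scaled to 10000 per cell, 2000 variable genes without the members, 30 components and 15 neighbours gave 25 clusters (leidenalg 0.10.2, resolution 1), named from marker lists that hold no member. Clusters with markers of 2 lineages and high depth were left out, by a rule set after seeing the data. Raw counts were summed per class and library and given as CPM with exact Poisson intervals, ratios with exact conditional binomial intervals and shares with Clopper-Pearson intervals. Each sum has 1 library, so precision is set by its counts, and intervals cover counting error only. A floor is 3 counts. For shares, cells were thinned to 2000 UMIs and shallower cells left out.

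The members, gene lists, tests and alternatives were chosen with earlier results of these data known. Each member is described, with its 3 most alike genes among genes with at least 100 counts. Of each list up to 4 genes are named, the 2 highest and 2 lowest log2 ratios. Some genes that these rules name are not reported here. The alternatives were other filters, doublet handling, resolution, class definitions, scaling, thinning, pseudocount and count minimum, and 1 chosen after seeing the data, leaving out the barcode with the highest count. On simulated Poisson counts with 200 changed genes, all changed genes kept their direction for ctxd18t against CTX in B-lineage cells (10797 genes). There 95.8% of intervals held the true value. These counts hold only the counting error that the intervals assume. The simulation therefore cannot show how the intervals do where counts gather in few barcodes or where libraries differ. The counts of VC were not used.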

Additional observations from a re-analysis of the deposited data

Results flagged for a closer look

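Jchain in B-lineage cells differed in opposite directions in the 2 comparisons of a combined with a CTX library. It was 0.70 (0.11 to 1.41) higher on the log2 scale in Combined than in CTX, and differed by -0.42 (-0.59 to -0.25) in combod18t against ctxd18t. The difference between the comparisons was not tested, since there is 1 library in each group. The first value rests on few barcodes: 34 of the 66 Combined counts and 14 of the 31 CTX counts lay in 1 barcode each. Without the highest barcode of each library the values were 0.50 and -0.66.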

How the results depend on the processing

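Of 640 log2 ratios of members recomputed under another setting, 548 stayed within the counting interval of the reported value, 92 moved beyond it, 0 reversed and 65 crossed 2-fold. The number of members 2-fold apart moved as follows, and the causes were not tested. In B-lineage cells, Combined against CTX had 1, and 2 with mixed clusters kept and 0 after thinning or with a pseudocount of 10 CPM. There, combod18t against ctxd18t had 0, and 5 by the mean of each cell's CPM, 3 with no doublets removed, with mixed clusters kept or without the highest barcode, 2 after thinning and 1 with classes from marker UMIs. CTX against MRX had 0, and 1 with no doublets removed, after thinning or with no count minimum. Combined against MRX had 0, and 1 under these 3 settings, with classes from marker UMIs, with median-of-ratios scaling or by the mean of each cell's CPM. Of the d18 against day 7 pairs, combod18t against Combined had 4, and 2 with a pseudocount of 10 CPM, and ctxd18t against CTX had 4 under every setting run. In CD4 T-like cells, Combined against CTX had 2, and 0 after thinning and 1 with median-of-ratios scaling, the mean of each cell's CPM or a pseudocount of 10 CPM. There, combod18t against ctxd18t had 4, and 2 with classes from marker UMIs. CTX against MRX had 1, and 2 at resolution 2, after thinning or with no count minimum. Combined against MRX had 1, and 2 at resolution 2, with classes from marker UMIs or with no count minimum, and 0 with a pseudocount of 10 CPM or without the highest barcode. The pair ctxd18t against CTX had 3, and 1 with a pseudocount of 10 CPM, and combod18t against Combined had 4, and 2 with classes from marker UMIs or after thinning and 1 with a pseudocount of 10 CPM. No paired analysis was possible because each group is 1 library and the labels give no replicate numbers. Few counts limit the day 7 germinal-centre B-like values, from 10 to 19 cells a library, and Il21, with 20 to 157 counts.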
